A study of Mus musculus with 18 samples.

Results

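Klf2 and 7 further genes of the naive T cell programme were followed in 18 RNA sequencing libraries of mouse CD4 T cells. The 8 genes are 6 transcription factor genes (Klf2, Klf3, Foxo1, Foxp1, Tcf7 and Lef1) and 2 homing receptor genes (S1pr1 and Ccr7). They were taken by symbol from a deposited table of 36528 entries, where each symbol occurred once, and all 8 were among the 13075 entries with enough signal to be tested. Splenic CD4+ T cells were taken from female mice of the lupus-prone hybrid NZB/W F1, aged 21 to 27 weeks with proteinuria of 30 to 100 mg/dL. Every well held 250000 cells and IL-2 at 10 U/mL for 48 h. The antibody in a well was anti-Ox40 (an IgG1) or a matching IgG1 isotype control, called control Ig here, at 25 µg/mL in both cases. Beads with anti-CD3 and anti-CD28 stimulate the T cell receptor and the costimulatory receptor CD28. They were left out (0 per cell) or added at 0.1 per cell, the low dose, or at 1 per cell, the high dose. These 2 antibodies and 3 bead doses made 6 groups of 3 libraries, and there was no group without antibody or without IL-2. Ox40, encoded by Tnfrsf4, is a costimulatory receptor of the TNF receptor superfamily that activated T cells display. The purpose given for the series was the expression signature of Ox40 acting together with the T cell receptor.

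Naive T cells circulate through the spleen and lymph nodes in a resting state. Ccr7 guides them into lymph nodes along the chemokines CCL19 and CCL21, and S1pr1, a receptor for sphingosine 1-phosphate (S1P), guides them out again. Klf2 is a zinc finger factor that keeps T cells quiescent and drives S1pr1. Klf3 is a repressor of the same family. Foxo1 drives Klf2, Il7r and Ccr7 and is removed from the nucleus when AKT phosphorylates it, a step that changes the protein and not necessarily its mRNA. Foxp1 is a forkhead factor that holds naive T cells in quiescence. Tcf7 and Lef1 encode related HMG box factors of T cell identity that can bind beta-catenin.

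On the GRCm38 build (RefSeq, 1-based), Klf2 lies at chr8:72319062-72321654 on the plus strand and Klf3 at chr5:64803521-64832901 on the plus strand. Foxo1 is at chr3:52268337-52350109 on the plus strand, and Foxp1 at chr6:98925342-99522746 on the minus strand. Tcf7 is at chr11:52246527-52283383 on the minus strand, and Lef1 at chr3:131110297-131224357 on the plus strand. S1pr1 is at chr3:115710433-115715055 and Ccr7 at chr11:99144199-99155077, both on the minus strand. Each value is a sum for a whole gene, so isoforms, such as the long and short forms of Tcf7 and Lef1, were not separated. The library kit does not mark strand, and exons of Klf3, Foxo1 and Lef1 overlap a gene on the opposite strand by 404, 674 and 1208 bases (Gm20033, Gm20402 and Gm43352), whose reads cannot be told apart there. Foxp1 shares 300 exonic bases with Gm20696 and 135 with Gm49348 on its own strand.

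Promoter sequence from RefSeq was matched for 6 of the 8 genes. The 250 bases before the start are shown for the 3 with a single start, Klf2, Klf3 and Foxo1. Capitals mark the CACCC motif that KLF proteins bind, or GGGTG, its complement.
Klf2: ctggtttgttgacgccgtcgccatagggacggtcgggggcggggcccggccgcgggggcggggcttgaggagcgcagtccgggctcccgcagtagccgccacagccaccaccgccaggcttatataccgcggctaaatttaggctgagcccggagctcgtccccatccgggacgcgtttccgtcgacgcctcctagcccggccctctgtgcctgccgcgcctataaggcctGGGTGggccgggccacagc
Klf3: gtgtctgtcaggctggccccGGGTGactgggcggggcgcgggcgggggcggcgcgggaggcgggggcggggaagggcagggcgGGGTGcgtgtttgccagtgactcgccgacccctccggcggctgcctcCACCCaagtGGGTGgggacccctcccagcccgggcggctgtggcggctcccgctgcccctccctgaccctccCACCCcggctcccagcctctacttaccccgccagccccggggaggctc
Foxo1: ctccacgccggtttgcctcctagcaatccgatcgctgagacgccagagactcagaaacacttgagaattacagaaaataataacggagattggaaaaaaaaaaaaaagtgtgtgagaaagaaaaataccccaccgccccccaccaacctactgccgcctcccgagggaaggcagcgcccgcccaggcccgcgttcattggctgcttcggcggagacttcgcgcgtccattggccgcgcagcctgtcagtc
These windows are chr8:72318812-72319061, chr5:64803271-64803520 and chr3:52268087-52268336 on GRCm38.p6, all on the plus strand. Klf2 held 1 CACCC match on either strand, Klf3 held 5 and Foxo1 none. The windows of the 3 starts of Foxp1 held 3, 0 and 2. Those of Tcf7 held 2 and 2, and those of Lef1 held 3, 3, 2 and 1. The 2 Lef1 windows with 3 matches (chr3:131110047-131110296 and chr3:131110073-131110322) share most of their bases, so the same site can be counted in both. CACCC is common, and 52.0% of 32851 promoter windows of this length hold it. The GC content of the windows was 71.2% for Klf2, 78.4% for Klf3 and 56.0% for Foxo1. The forkhead motif GTAAACA (3.17% of windows) was in none of the windows of the 6 genes, and the TCF/LEF motif CTTTGAT (3.21%) was in none either. The other TCF/LEF form, CTTTGAA (4.46%), was found once, before 1 of the 3 starts of Foxp1. No motif searched overlaps another. These matches describe letters and were not tested as binding sites or against the changes with beads.

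The values are nRPKM, reads scaled to gene length and to library size, with a further scaling by the authors, so they can be compared between genes. All 8 genes were well measured. Their values lay between 9.182 and 495.437 nRPKM, and the thinnest of them, Klf2 in an anti-Ox40 library with high beads, rested on about 2330 reads, from a depth of 26.44 to 45.96 reads per nRPKM and kilobase worked out from microRNA genes. Differences are log2 fold changes of nRPKM + 1 with their standard error (SE), and a gene was called at a limma adjusted p under 0.05 over all tested genes. The labels do not say whether the 3 libraries of a group came from separate mice or cultures, so the p-values reflect nothing beyond the spread among these libraries. In a bulk sample, fewer cells of a type and less of an RNA per cell cannot be told apart.

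The RNA of several lists of marker genes changed with the groups too, and whether cell numbers changed was not tested. The summed level of 5 CD4 T cell markers was 1108 to 1181 nRPKM with control Ig and no beads, 950.9 to 996.6 with high beads, and 820.4 to 843.2 with anti-Ox40 and high beads. The 2 CD8 genes stayed at 4.4 to 7.0 nRPKM in total. Myeloid markers (7 genes) summed to 231.9 to 264.3 with control Ig and no beads and to 5.413 to 11.29 with high beads, and NK markers (5 genes) went from 35.73-46.04 to 6.571-9.908. Platelet markers (4 genes) went from 54.03-74.26 to 9.335-12.62, neutrophil markers (4 genes) from 11.89-21.21 to 0.584-3.802 and dendritic cell markers (4 genes) from 2.817-3.333 to 0.292-0.415. All tested genes of these 5 lists were called lower with high beads, and between the antibodies at high beads the platelet gene Pf4 alone was called (lower). S100a9 and Siglech, of the neutrophil and dendritic cell lists, were listed at 0 in all 3 anti-Ox40 libraries with high beads. B cell markers (8 genes, none of the 7 tested called between the antibodies) summed to between 4.136 and 51.31, with the highest sum in replicate 3 of every group. Transcripts of lung epithelium (4 genes) were at 0 to 0.018 with control Ig and no beads and, at low beads, at 0.014 to 24.78 with control Ig and 37.05 to 207.3 with anti-Ox40. At high beads they summed to 29.65 to 115.0 with control Ig and 27.33 to 50.81 with anti-Ox40. All 4 were called higher with high beads than without under each antibody, and with anti-Ox40 than with control Ig at low beads, and none between the antibodies at high beads. Nuclear RNAs (4 genes, among them Neat1 and Malat1) summed to 454.8 to 601.0 with control Ig and no beads, to 157.3 to 192.6 with high beads and to 114.4 to 127.1 with anti-Ox40 and high beads. The part of these shifts in the results was not tested, except where a value without the replicate 3 libraries or with a nuclear RNA score (the mean log2 level of the nuclear RNA genes) in the model is given. The nuclear RNA score was at most 3.3184 in the high-bead libraries and at least 3.6187 in the others. A fit with this score therefore does not separate it from the high dose.

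**Figure D1:**
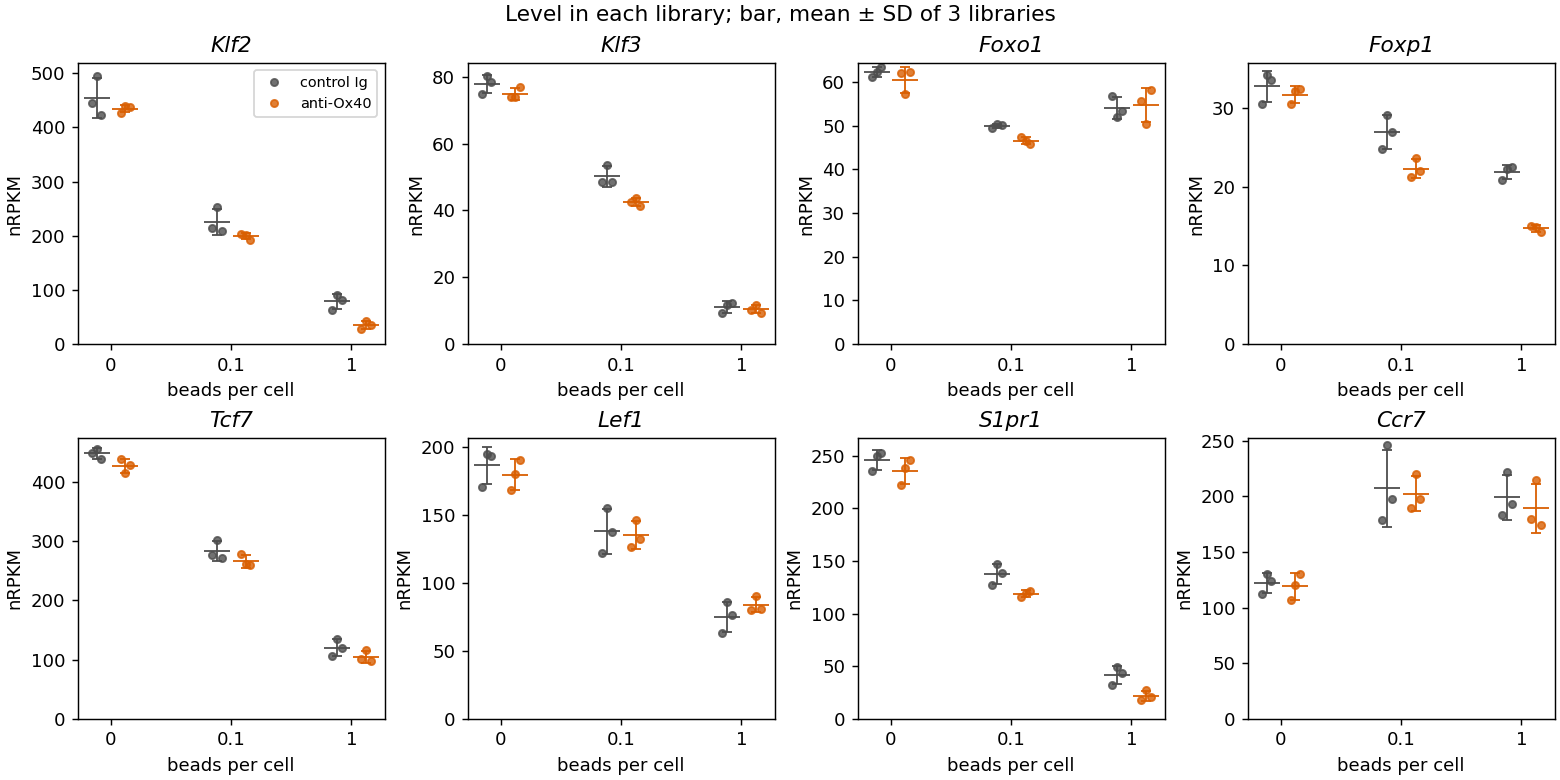
Level of each of the 8 genes in nRPKM (linear axis from 0) against the number of beads per cell, with a point for each library and a bar for the mean ± SD of 3 libraries, in grey for control Ig and orange for anti-Ox40. Klf2, Klf3, S1pr1, Tcf7 and Lef1 step down with each dose, Ccr7 is higher with beads, and the orange points sit below the grey ones at high beads for Klf2, S1pr1 and Foxp1.

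Without beads, the 8 genes covered a wide range of levels. Under control Ig, Klf2 and Tcf7 were highest at 454 ± 37.4 and 448 ± 8.61 nRPKM (mean ± SD, n = 3), and their libraries overlapped. S1pr1 followed at 246 ± 9.23, Lef1 at 187 ± 13.5, Ccr7 at 122 ± 9.01, Klf3 at 77.8 ± 2.74, Foxo1 at 62.2 ± 1.19 and Foxp1 at 32.7 ± 1.94, each pair of neighbours separate. The order was the same under anti-Ox40. High beads turned it over. Under control Ig it became Ccr7, Tcf7, Klf2 and Lef1 (overlapping), Foxo1, S1pr1, Foxp1 and Klf3. Under anti-Ox40 and high beads Klf2 stood 2 places lower, behind Lef1 and Foxo1, and all neighbours were separate. Low beads gave an order in between, with Tcf7 first, and with Klf2 and Ccr7 overlapping, under both antibodies.

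Beads lowered 7 of the 8 genes and raised Ccr7. With control Ig, low beads against no beads called 7 genes lower and 1 higher, where 29.8% of all tested genes were called lower and 32.6% higher. High beads against no beads gave the same count, against 38.9% lower and 43.4% higher. The median log2 difference of the 8 genes was -0.53 at low beads and -1.60 at high beads, beside 0.006 and 0.0375 over all tested genes. With anti-Ox40 the counts were again 7 lower and 1 higher at low beads (background 33.7% and 37.1%) and at high beads (39.3% and 45.2%). The comparisons with no beads share their no-bead libraries within an antibody.

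Klf2 under control Ig stood at 445.798, 495.437 and 422.124 nRPKM without beads, at 214.857, 252.854 and 209.432 with low beads and at 63.217, 91.339 and 81.724 with high beads. The 3 doses did not overlap, and 49.7% and then 17.3% of the no-bead mean was left. The log2 difference from no beads was -1.01 (SE 0.13, limma adjusted p = 7.06e-06) at low beads and -2.53 (limma adjusted p = 3.34e-11) at high beads. Under anti-Ox40 it stood at 426.744, 439.530 and 437.388 without beads, at 202.614, 202.116 and 192.522 with low beads and at 28.813, 43.364 and 35.977 with high beads. That left 45.8% and then 8.30%, log2 differences of -1.12 (limma adjusted p = 1.54e-06) and -3.57 (limma adjusted p = 3.8e-13).

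Klf3 fell mostly between the low and the high dose. Under control Ig it stood at 74.758, 80.135 and 78.404 nRPKM, then at 48.473, 53.714 and 48.399, and with high beads at 9.182, 11.788 and 12.322. Low beads left 64.5% and high beads 14.3%, log2 differences of -0.62 (SE 0.09, limma adjusted p = 1.39e-05) and -2.71 (limma adjusted p = 8.52e-14) from no beads. Under anti-Ox40 the values were 73.875, 73.845 and 77.058 without beads, 42.471, 43.853 and 41.245 with low beads and 10.224, 11.752 and 9.319 with high beads. The libraries of the 2 antibodies were separate at low beads and overlapped at high beads, where 13.9% of the anti-Ox40 no-bead mean was left.

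Tcf7 and Lef1 also stepped down with each dose, and more of their RNA was left at the high dose than of Klf3. Tcf7 under control Ig stood at 449.635, 455.827 and 438.818 nRPKM without beads, at 276.106, 301.757 and 271.039 with low beads and at 106.774, 135.178 and 118.792 with high beads. The high dose left 26.8% (log2 difference -1.90, SE 0.08, limma adjusted p = 1.49e-12). Under anti-Ox40 it went from 439.069, 415.428 and 427.979 through 278.532, 261.016 and 258.918 to 100.945, 115.867 and 97.018, with 24.5% left. Both antibodies gave separate doses and overlapping libraries at each dose with beads. Lef1 under control Ig went from 170.960, 194.981 and 193.731 through 121.875, 155.079 and 137.113 to 63.327, 85.604 and 76.175 nRPKM. Its high dose left 40.2% (log2 difference -1.31, SE 0.10, limma adjusted p = 5.68e-09). Under anti-Ox40 Lef1 went from 168.086, 180.378 and 190.834 through 126.478, 146.321 and 132.642 to 80.193, 90.116 and 80.912, with 46.6% left. Its low-bead difference was -0.44 (limma adjusted p = 0.00175) under control Ig and -0.41 (limma adjusted p = 0.00226) under anti-Ox40. Without the replicate 3 libraries these 2 calls of Lef1 were lost, with limma adjusted p = 0.0521 and 0.0727 (ranges over all alternatives 0.000141 to 0.0521 and 2.6e-05 to 0.0727).

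With control Ig the forkhead genes Foxp1 and Foxo1 had the smallest differences from no beads. Foxp1 under control Ig stood at 30.504, 34.140 and 33.515 nRPKM, then at 24.761, 29.094 and 26.921, and with high beads at 20.890, 22.206 and 22.448. The doses did not overlap, and 82.3% and 66.8% of the no-bead mean was left (log2 differences -0.27 with limma adjusted p = 0.00075, and -0.56 with limma adjusted p = 1.72e-07, SE 0.06). Under anti-Ox40 it went from 30.492, 32.079 and 32.458 through 21.219, 23.624 and 22.020 to 15.026, 14.896 and 14.221, with 70.4% and then 46.5% left. Foxo1 alone was lower at low beads than at high beads in its mean. Its control Ig values were 61.010, 62.270 and 63.382 without beads, 49.459, 50.379 and 50.079 with low beads and 56.694, 51.877 and 53.307 with high beads. Against no beads the log2 difference was -0.31 (SE 0.05, limma adjusted p = 4.97e-05) at low beads and -0.20 (limma adjusted p = 0.00121) at high beads. The high dose against the low dose gave 0.11 (limma adjusted p = 0.0595), not called, and -0.116 after quantile normalization. 4 of 27 alternatives called this step, with limma adjusted p from 0.0294 to 0.908 over all of them.

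Under anti-Ox40 Foxo1 stood at 62.053, 57.117 and 62.213 nRPKM without beads, at 47.475, 46.417 and 45.750 with low beads and at 55.568, 50.402 and 58.100 with high beads. All high-bead libraries were above all low-bead libraries, and this rise of 0.23 was called (limma adjusted p = 0.000687). It was 0.013 after quantile normalization and 0.133 with a nuclear RNA score in the model, neither called (limma adjusted p = 0.832 and 0.296, range over all alternatives 7.82e-05 to 0.832). Its difference of -0.14 between high and no beads (limma adjusted p = 0.0127) was not called in 5 of 27 alternatives, with limma adjusted p up to 0.0937, and was -0.546 after quantile normalization. The Foxo1 mRNA was thus at 77.0% to 90.5% of its no-bead mean wherever beads were present, while Klf2 ranged from 49.7% down to 8.30%.

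S1pr1, the egress receptor, fell in steps close to those of Klf2. Under control Ig it stood at 235.495, 250.148 and 252.533 nRPKM, at 127.501, 147.029 and 138.552 with low beads and at 32.285, 49.110 and 43.794 with high beads. The doses were separate, and 56.0% and then 17.0% was left, log2 differences of -0.83 (SE 0.13, limma adjusted p = 5.61e-05) and -2.55 (limma adjusted p = 3.52e-11). Under anti-Ox40 it went from 221.905, 238.075 and 245.847 through 115.701, 119.184 and 121.834 to 17.945, 27.118 and 20.353. The high dose left 9.27% there, a log2 difference of -3.39 (limma adjusted p = 8.48e-13).

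Ccr7, the entry receptor, rose with the low dose and did not move further with the high dose. Under control Ig it stood at 112.480, 130.206 and 124.148 nRPKM, at 178.862, 245.879 and 197.619 with low beads and at 182.959, 221.763 and 193.055 with high beads. All libraries with beads were above all without, and the low and the high dose overlapped. The log2 difference from no beads was 0.75 (SE 0.12, limma adjusted p = 3.98e-05) at low beads and 0.70 (limma adjusted p = 3.54e-05) at high beads, and -0.05 (limma adjusted p = 0.71) between the doses. Under anti-Ox40 the values were 106.707, 120.199 and 130.539, then 189.946, 220.554 and 197.310, then 179.463, 214.599 and 174.182. Low beads gave 170% of the no-bead mean under each antibody, and high beads 163% and 159%. The rise at low beads was called in every alternative run. That at high beads depended on scaling. After quantile normalization it was 0.266 under control Ig and 0.159 under anti-Ox40, the latter not called (limma adjusted p = 0.129, range 1.27e-05 to 0.53), and the fall from low to high beads was called (-0.366 and -0.432). With a nuclear RNA score in the model neither rise at high beads was called (0.409 with limma adjusted p = 0.162, range 7.91e-06 to 0.162, and 0.258 with limma adjusted p = 0.53). That score was lower in every high-bead library than in every no-bead library, so this fit does not separate it from the dose.

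**Figure D2:**
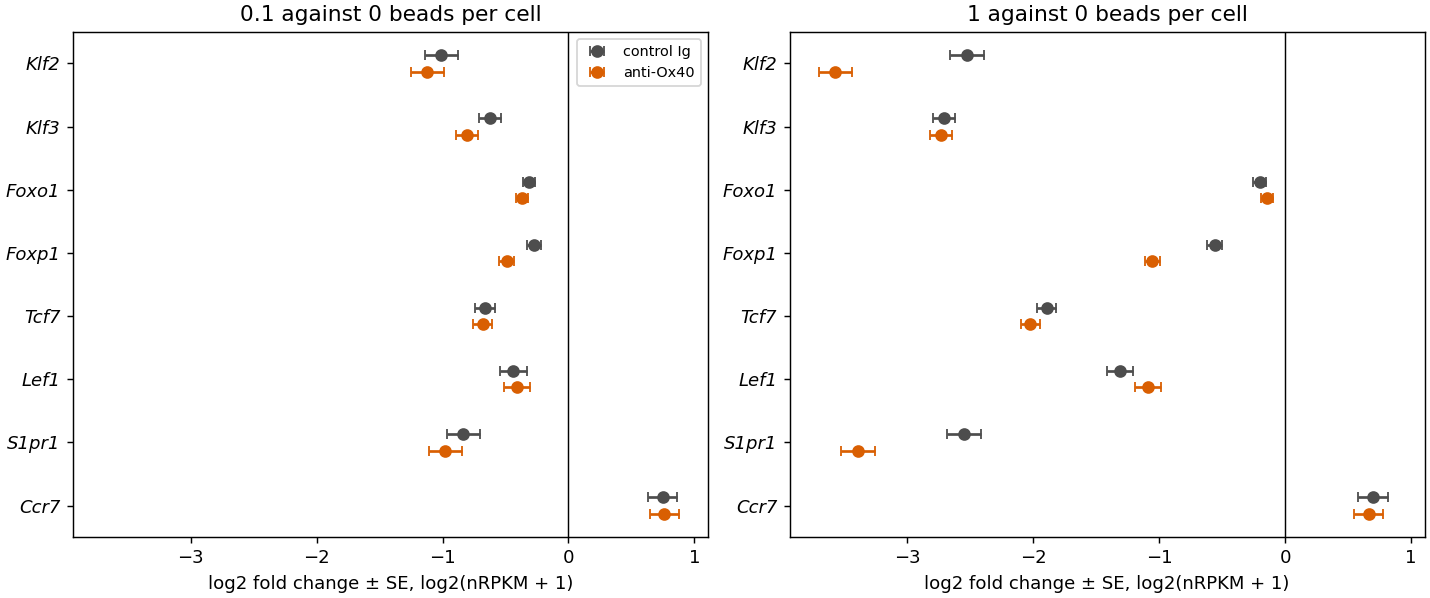
Log2 fold change ± SE of log2(nRPKM + 1) for low beads against no beads (left) and high beads against no beads (right), with control Ig in grey and anti-Ox40 in orange. Klf2, Klf3 and S1pr1 lie farthest below 0 at high beads (-2.53, -2.71 and -2.55 with control Ig), and Ccr7 is the single gene above 0 in both panels.

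Il7r and Cd69, which act beside the homing receptors, were measured as well. Il7r, the receptor chain for the survival cytokine IL-7, fell under control Ig from 363 ± 37.1 through 75.6 ± 4.73 to 40.1 ± 3.97 nRPKM. The log2 difference was -2.24 at low beads (limma adjusted p = 4.06e-11) and -3.15 at high beads (limma adjusted p = 1.57e-13). Il7r thus lost most of its level at the low dose, where Klf2 was still at 49.7%. Cd69, whose protein binds S1pr1 and takes it off the cell surface, was at 6.99 ± 0.229 without beads, 7.47 ± 0.596 with low beads and 12.1 ± 0.724 with high beads. These Cd69 values are from control Ig, where its rise was called at high beads (0.71, limma adjusted p = 1.22e-06) and not at low beads (0.08, limma adjusted p = 0.431). Under anti-Ox40 the rise was called at low beads (0.345, limma adjusted p = 0.00224) and at high beads (1.49, limma adjusted p = 1.04e-10).

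The effect of anti-Ox40 was small without beads and was called for 3 of the 8 genes at high beads. Without beads none of the 8 genes was called between the antibodies, and all 8 differences lay between -0.04 and -0.07, each with limma adjusted p = 1 (lowest unadjusted p = 0.389, for Tcf7). Over all tested genes 18 were called there (0.138%), with 519 at an unadjusted p under 0.05. At low beads 1 gene, Foxp1, was called lower and none higher, where 3.44% of tested genes were called lower and 6.15% higher. At high beads 3 were called lower and none higher, against 11.6% lower and 14.4% higher. The median difference of the 8 genes was -0.05, -0.14 and -0.14 at the 3 doses, beside -0.0077, 0.0031 and 0.0043 over all tested genes.

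Klf2 at high beads stood at 28.813 to 43.364 nRPKM with anti-Ox40 and at 63.217 to 91.339 with control Ig, so that the 2 sets of libraries were apart. The mean with anti-Ox40 was 45.8% of that with control Ig, or 2.18-fold lower (log2 difference -1.11, SE 0.13, limma adjusted p = 5.83e-05). At low beads it was 88.2% (-0.18, limma adjusted p = 0.401), with separate libraries but no call. Without beads it was 95.6%, and the libraries overlapped.

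S1pr1 gave a like picture. At high beads its mean with anti-Ox40 was 52.3% of that with control Ig, or 1.91-fold lower, and the libraries were separate (log2 difference -0.91, SE 0.13, limma adjusted p = 0.000253). At low beads it was 86.4% (-0.21, limma adjusted p = 0.319), not called although the libraries were separate, and without beads 95.6%.

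Foxp1 differed at both bead doses. At low beads it was at 82.8% of the control Ig mean, with separate libraries and a log2 difference of -0.26 (SE 0.06, limma adjusted p = 0.0184). At high beads it was at 67.3%, or 1.48-fold lower (-0.54, limma adjusted p = 2.77e-05). The low-bead call of Foxp1 was lost in 5 of 27 alternatives, with adjusted p from 0.0058 to 0.343 over all of them and the highest without the replicate 3 libraries, where the difference was -0.251. Over all tested genes the calls at low beads went from 1254 to 24 without the replicate 3 libraries. The high-bead calls of Klf2, S1pr1 and Foxp1 stood in all 27 alternatives, with log2 differences of -1.257 to -0.961, -1.075 to -0.780 and -0.573 to -0.498. The CD4 T cell marker sums given above were also lower with anti-Ox40 at high beads, and 3 of the 5 markers (Cd3d, Cd3e and Cd5) were called, as was the nuclear RNA Neat1. Their part in the 3 calls was not tested beyond the nuclear RNA score, and that of the lung transcripts in the low-bead call of Foxp1 was not tested.

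The other 5 genes were not called between the antibodies at high beads. Tcf7 was nearest (-0.20, SE 0.08, limma adjusted p = 0.072), and 4 of 27 alternatives called it, with limma adjusted p from 0.0133 to 0.422. Without control Ig, high beads, replicate 1 its difference was -0.278. Klf3 differed by -0.08 (SE 0.09, limma adjusted p = 0.564), Ccr7 by -0.07 (SE 0.12, limma adjusted p = 0.69), Foxo1 by 0.02 (SE 0.05, limma adjusted p = 0.835) and Lef1 by 0.17 (SE 0.10, limma adjusted p = 0.268). At low beads Klf3 and Foxo1 had separate libraries, with differences of -0.23 (limma adjusted p = 0.0938) and -0.10 (limma adjusted p = 0.19). Klf3 was called there in 2 of 27 alternatives (limma adjusted p from 0.0383 to 0.394).

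Of the genes beside the receptors, Cd69 was called higher at low beads (0.36, limma adjusted p = 0.0251) and at high beads (0.88, SE 0.09, limma adjusted p = 1.63e-05), where 19.238 to 26.550 nRPKM with anti-Ox40 lay above 11.431 to 12.863 with control Ig. Il7r was not called at high beads (-0.04, limma adjusted p = 0.844).

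**Figure D3:**
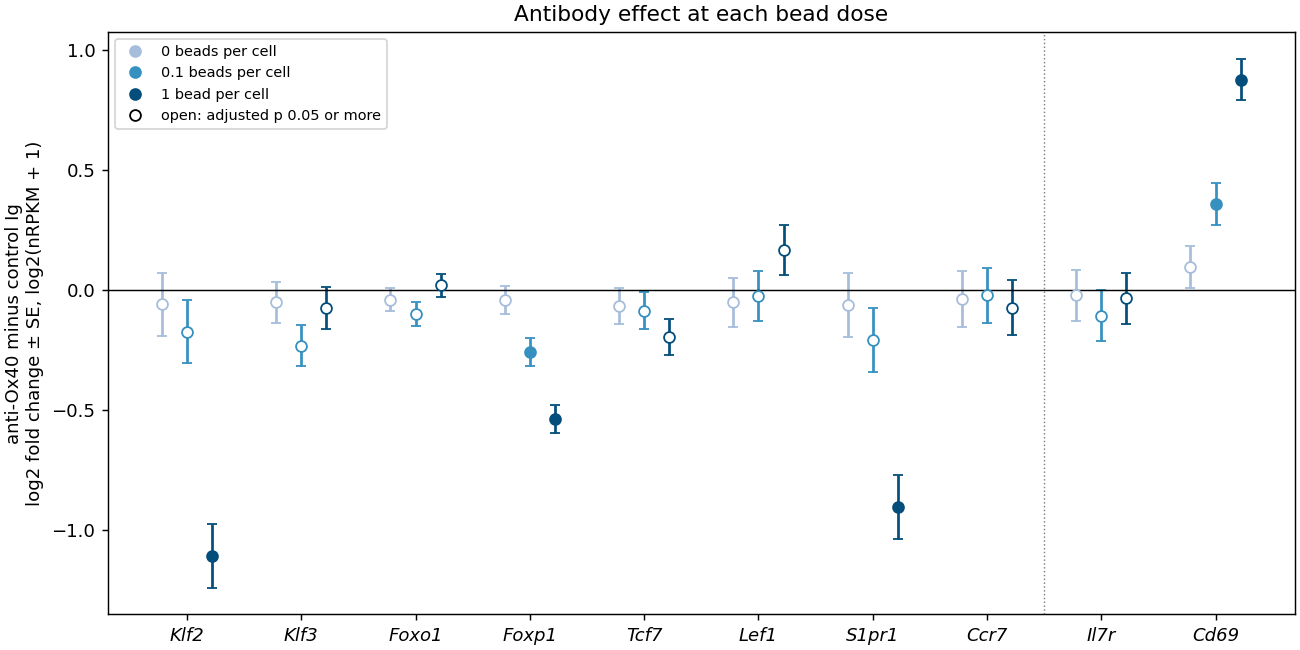
Anti-Ox40 minus control Ig as log2 fold change ± SE of log2(nRPKM + 1) at 0, 0.1 and 1 bead per cell (light to dark), for the 8 genes and, right of the dotted line, Il7r and Cd69, with filled points for an adjusted p under 0.05. At high beads Klf2 (-1.11), S1pr1 (-0.91) and Foxp1 (-0.54) are filled below 0 and Cd69 (0.88) above it.

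Whether the antibody effect itself differed between bead doses was tested with interaction terms. Between high and no beads it differed for 3 of the 8 genes, all with a more negative effect at high beads, where 4.70% of tested genes were called lower and 6.40% higher. The differences were -1.05 (SE 0.19, limma adjusted p = 0.0045) for Klf2, -0.84 (SE 0.19, limma adjusted p = 0.0138) for S1pr1 and -0.50 (SE 0.08, limma adjusted p = 0.00324) for Foxp1. All 3 calls were lost without the replicate 3 libraries, which leaves 2 libraries a group (-0.965 with limma adjusted p = 0.135, -0.745 with 0.207 and -0.454 with 0.127), and stood in the other 26 alternatives, with limma adjusted p from 0.000965, 0.00199 and 0.00149 upward. Over all tested genes the calls of this comparison went from 1451 to 7 without the replicate 3 libraries.

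Between high and low beads 1 gene was called, Klf2 at -0.93 (limma adjusted p = 0.0177), against 1.70% of tested genes called lower and 1.47% higher. This Klf2 call was lost in 3 of 27 alternatives, one of them without control Ig, high beads, replicate 3 (limma adjusted p = 0.0546, range over all alternatives 0.00745 to 0.362). Another was without the replicate 3 libraries, where the calls over all tested genes went from 414 to 3. S1pr1 (-0.70, limma adjusted p = 0.0564) and Foxp1 (-0.28, limma adjusted p = 0.075) were not called. Between low and no beads none of the 8 genes was called, where 0.268% of tested genes were, and Foxp1 was nearest at -0.22 (limma adjusted p = 0.216, unadjusted p = 0.0188, the single unadjusted p under 0.05 of the 8). For Cd69 the antibody effect was larger at high beads than at no beads (0.78, limma adjusted p = 0.00296) and than at low beads (0.52, limma adjusted p = 0.0356).

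The step from low to high beads is given here within each antibody. How it differs between the antibodies is the interaction of high and low beads given above, and adds no further evidence. Under control Ig the step called 6 of the 8 genes lower and none higher, where 32.5% of tested genes were called lower and 40.0% higher. Under anti-Ox40 it called the same number lower and 1, Foxo1, higher, against 31.2% and 40.3%. The log2 step was -1.52 for Klf2 under control Ig and -2.45 under anti-Ox40, and for S1pr1 it was -1.72 and -2.41. For Klf3 the steps were -2.09 and -1.93, for Tcf7 -1.23 and -1.34, and for Lef1 -0.87 and -0.68. For Foxp1 they were -0.29 and -0.57.

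The profiles over the 6 group means were compared as a description, by the root mean square (RMS) difference of log2(nRPKM + 1), each gene centred on its own mean. Among the 8 genes Klf2 and S1pr1 were the closest pair at 0.0881 and Klf2 and Ccr7 the farthest at 1.55. The pairs within a family were less close, with 0.339 for Klf2 and Klf3, 0.333 for Tcf7 and Lef1 and 0.335 for Foxp1 and Foxo1. Klf3 was nearer to S1pr1 (0.262) than to Klf2, and Foxp1 was nearer to Lef1 (0.278) than to Foxo1. These distances rest on 6 means from the same libraries.

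**Figure D4:**
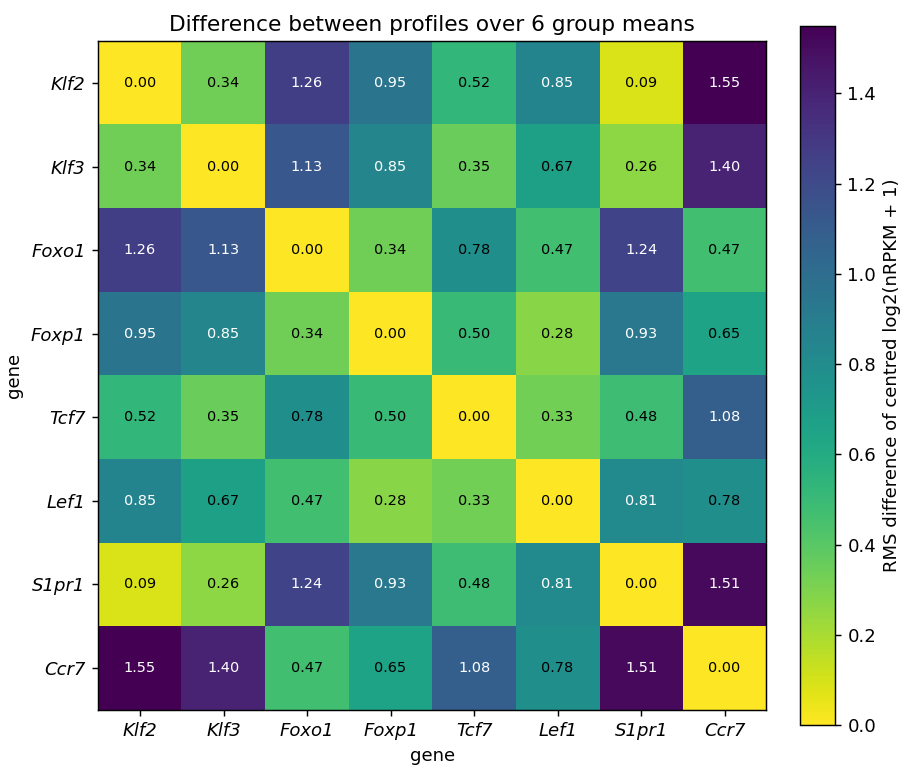
RMS difference of the centred log2(nRPKM + 1) profiles over 6 group means for each pair of the 8 genes, from 0 (yellow) to 1.55 (dark). Klf2 and S1pr1 are the nearest pair (0.09 in the plot, 0.0881 unrounded), and the row of Ccr7 holds the farthest pair.

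Of 11210 genes compared for likeness, the nearest profile to Klf2 was that of S1pr1, followed by S100a4 (0.131), a calcium-binding protein of effector and memory T cells, and Pyhin1 (0.139). For S1pr1 they were Pyhin1 (0.0707), Klf2 and Vipr1 (0.0933), the receptor for vasoactive intestinal peptide that naive T cells carry. The nearest to Klf3 were BC106179 (0.0669), Pou6f1 (0.0676) and Xkrx (0.0785). The nearest to Ccr7 were Igbp1 (0.0331), Folr4 (0.0458), also known as Izumo1r, and Eif3f (0.0492), a subunit of a translation initiation factor. For Foxp1 they were Cln3 (0.0531), Tlr12 (0.0539) and Add1 (0.0582), and for Foxo1 Tpp2 (0.0273), Dnase2a (0.0297) and Pcgf2 (0.03). For Tcf7 they were Hsd17b11 (0.0303), Rnase4 (0.0488) and B3gnt5 (0.0519), and for Lef1 Ube2d1 (0.0287), Aldh6a1 (0.0423) and Sh2b3 (0.0518). A small distance is easier to reach for a gene that moves little, such as Foxo1, than for one that moves as far as Klf2.

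The rest of each family and pathway was counted with the 8 genes left out. Each count is to be read against all tested genes, of which 38.9% were called lower and 43.4% higher with control Ig and high beads against no beads, and 11.6% lower and 14.4% higher with anti-Ox40 at high beads. In the main fit the latter were 1520 genes lower and 1877 higher. Without the replicate 3 libraries anti-Ox40 called 582 of all tested genes lower and 805 higher at high beads. At low beads it then called 0 lower and 24 higher. Of the other KLF genes, 9 of 15 were tested, and with control Ig and high beads 7 were called lower and 1 higher than without beads, with a median of -0.439. Klf6 fell from 94.4 to 34.1 nRPKM (-1.44, limma adjusted p = 1.28e-11). Klf10, a factor induced by TGF-beta, rose from 2.29 to 10.3 (1.77, limma adjusted p = 4.96e-12). Anti-Ox40 at high beads called Klf13, a factor of late T cell activation, lower (56.4 against 44.2, -0.34, limma adjusted p = 0.00218) and Klf4, a quiescence factor, higher (1.06 against 1.64, 0.36, limma adjusted p = 0.00661). Klf2 was thus 1 of 2 KLF genes called lower with the antibody, of 11 tested.

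Of the other FOXO and FOXP genes 4 of 6 were tested, and 3 were called lower with high beads. Foxo4 went from 19.7 to 10.5 nRPKM (-0.84, limma adjusted p = 8.32e-10). Foxp3, the factor of regulatory T cells, went from 93.3 to 34.4 (-1.44, limma adjusted p = 4.29e-06), and Foxo3 from 21.3 to 17.9. Foxp4 was not called (-0.02, limma adjusted p = 0.651), though quantile normalization called all 4 lower. None of these 4 was called between the antibodies at high beads, where Foxp1 was.

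Partners of Tcf7 and Lef1 were called about as often as all tested genes. Of 11 tested genes of 13, 5 were called higher and 5 lower with high beads (43.4% and 38.9% over all tested genes), or 3 higher and 6 lower after quantile normalization. Those that fell most strongly were Bcl9l, a coactivator of beta-catenin (40.5 to 8.84 nRPKM, -2.08, limma adjusted p = 8.19e-15), Axin2, a feedback target of the Wnt pathway (21.0 to 5.44, -1.78, limma adjusted p = 3.78e-13), and the corepressor Tle4 (21.7 to 6.60, -1.58, limma adjusted p = 2.51e-11). Anti-Ox40 at high beads called 3 lower and 2 higher, or 1 lower and none higher without the replicate 3 libraries. Bcl9l (-0.33, limma adjusted p = 0.000558), Axin2 (-0.30, limma adjusted p = 0.00317) and Tle4 (-0.33, limma adjusted p = 0.00733) were lower, while the corepressor Tle1 was higher (0.23, limma adjusted p = 0.0166).

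Of 16 other naive T cell factors, all tested, high beads called 10 lower and 4 higher, with a median of -0.286. The antiproliferative genes Btg1 (133 to 44.1 nRPKM, -1.57, limma adjusted p = 5.55e-14), Btg2 (115 to 23.1, -2.27, limma adjusted p = 7.33e-13) and Tob1 (25.1 to 9.54, -1.31, limma adjusted p = 5.21e-11) fell. The repressor Gfi1 rose from 7.27 to 30.2 (1.92, limma adjusted p = 3.3e-13). With anti-Ox40 at high beads 5 were called lower and 2 higher. Btg1 (-0.25, limma adjusted p = 0.00157) and Elf4 (-0.27, limma adjusted p = 0.00171), a factor of T cell quiescence, were lower, and Gfi1 (0.46, limma adjusted p = 0.000254) and Zeb1 (0.29, limma adjusted p = 0.000413) were higher. At low beads 1 of the 16, Btg1, was called between the antibodies (-0.20, limma adjusted p = 0.0246). That count was 0 without the replicate 3 libraries and 2 after quantile normalization.

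Of 15 other homing and adhesion receptors, all tested, high beads called 9 lower and 3 higher, or 9 and 1 after quantile normalization. Ccr9, which guides T cells to the gut, fell from 5.59 to 0.485 nRPKM (-2.15, limma adjusted p = 4.18e-13), and the integrin gene Itga4 fell from 112 to 18.5 (-2.53, limma adjusted p = 1.39e-10). Ccr4, a receptor of activated T helper cells, rose from 3.49 to 55.1 (3.64, limma adjusted p = 4.64e-16). With anti-Ox40 at high beads 9 of the 15 were called lower and none higher, with a median of -0.357, and 5 were called lower without the replicate 3 libraries. Itgb7 (196 against 147 nRPKM, -0.42, limma adjusted p = 3.09e-05), Itgal (151 against 116, -0.38, limma adjusted p = 0.000101) and Selplg, the selectin ligand (184 against 134, -0.46, limma adjusted p = 0.000159), were among them. S1pr1 was lower there too and Ccr7 was not called. The CD4 T cell marker sums moved with this contrast as given above.

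Of the S1P pathway 8 of 12 other genes were tested. High beads called 4 lower and 3 higher, or 5 and 2 after median-ratio scaling and 6 and 2 after quantile normalization. S1pr4, another S1P receptor of lymphocytes, went from 129 to 52.8 nRPKM (-1.27, limma adjusted p = 1.55e-10), and Sgpl1, the lyase that breaks S1P down, from 31.0 to 16.9 (-0.84, limma adjusted p = 8.72e-11). Gnai2, a G protein subunit that carries signals of S1pr1 and Ccr7, rose from 242 to 355 (0.55, limma adjusted p = 4.99e-08). With anti-Ox40 at high beads 2 were called lower and 3 higher, or 1 and 1 without the replicate 3 libraries. S1pr4 was lower (31.6 nRPKM, -0.72, limma adjusted p = 2.19e-05), as was Sphk2, a kinase that makes S1P (-0.18, limma adjusted p = 0.00606).

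**Figure D5:**
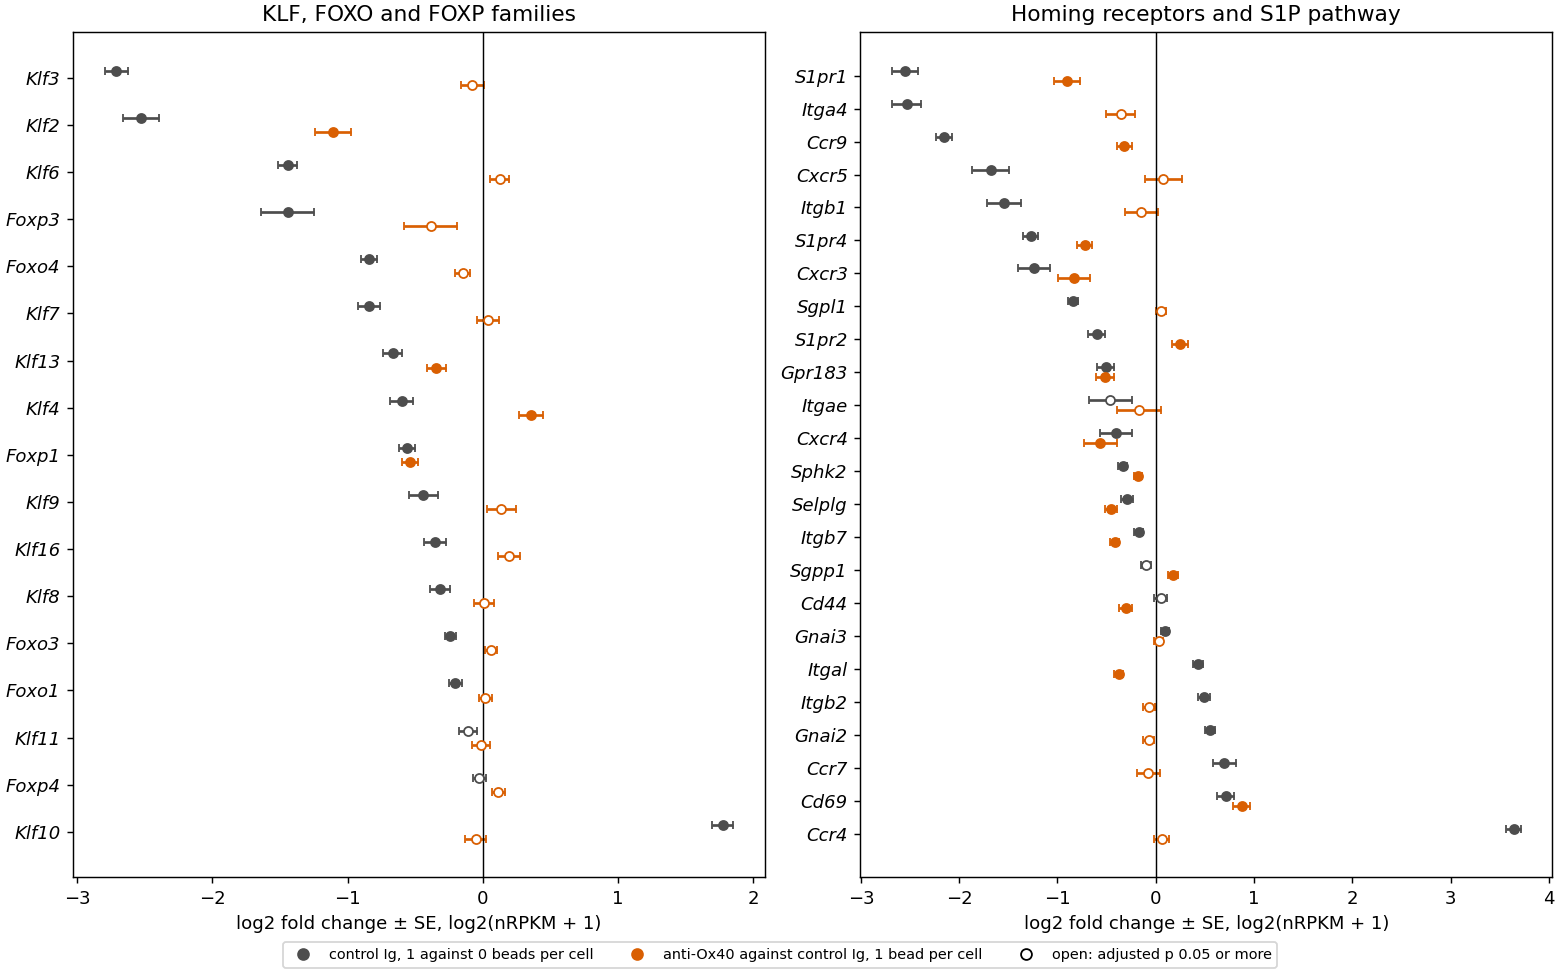
Log2 fold change ± SE of log2(nRPKM + 1) for tested genes of the KLF, FOXO and FOXP families (left) and of the homing receptors and S1P pathway (right), in grey for high against no beads with control Ig and in orange for anti-Ox40 against control Ig at high beads, with open points for an adjusted p of 0.05 or more. Klf2 (-1.11) and S1pr1 (-0.91) are the lowest orange points of their panels, and Klf3 lies beside Klf2 in grey and near 0 in orange.

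Genes that control FOXO through PI3K and AKT were all tested (12 genes). High beads called 6 lower and 4 higher (38.9% and 43.4% over all tested genes), or 8 and 2 after quantile normalization, so the main count is near the background. The kinase gene Sgk1 went from 11.4 to 2.74 nRPKM (-1.73, limma adjusted p = 6.45e-12). Pik3r1, a regulatory subunit of PI3K, went from 30.0 to 13.9 (-1.06, limma adjusted p = 3.88e-11). With anti-Ox40 at high beads 4 were called lower and 3 higher. The PI3K inhibitor Pik3ip1 (10.1 against 5.90 nRPKM, -0.68, limma adjusted p = 0.0017) was lower, and Akt1 (57.8 against 68.7, 0.24, limma adjusted p = 0.00155) was higher.

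Of 9 target genes of FOXO factors, all tested and with Klf2, S1pr1 and Ccr7 left out, high beads called 6 lower and 2 higher, with a median of -1.22. Beside Il7r, the cell cycle inhibitor Cdkn1b fell from 115 to 35.7 nRPKM (-1.66, limma adjusted p = 1.33e-12), the stress-response gene Sesn1 from 58.6 to 11.5 (-2.26, limma adjusted p = 1.44e-11) and Bcl6, the factor of follicular helper T cells, from 8.17 to 2.60 (-1.35, limma adjusted p = 3.06e-10). Anti-Ox40 at high beads called 5 lower and 2 higher, or 2 lower and none higher without the replicate 3 libraries. Bcl6 (2.60 against 1.33 nRPKM, -0.63, limma adjusted p = 0.000135), Sesn1 (11.5 against 7.33, -0.58, limma adjusted p = 0.0014) and Cdkn1b (35.7 against 28.6, -0.31, limma adjusted p = 0.00335) were lower, and Il7r was not called.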

How the data were processed

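Libraries were made with a kit that does not mark strand from 100 to 500 ng of RNA, per the labels' protocols. The authors deposited 1 table of nRPKM, RPKM values with a further scaling between libraries whose method the sources used here do not give. The submitters' processing notes name GSNAP, without a version, and the GRCm38 build. Values summed to 273498 to 348466 per library, and 0 pairs of libraries were identical.

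Genes with at least 1 nRPKM in at least 3 of the 18 libraries were tested (13075). A model with a mean for each of 6 groups was fitted to log2(nRPKM + 1), so fold changes of low genes are understated, with limma 3.58.1 in R 4.3.3 (mean-variance trend, 12 residual degrees of freedom, 12 contrasts). P-values are 2-sided and adjusted by Benjamini-Hochberg over all tested genes within a contrast. The procedure was tested on simulated data. Depth was worked out from microRNA genes, as the factor that brought their low values to whole multiples of 1 read. With it 100% of the values used lay within 0.1 of a whole read. That share followed in part from the choice of the factor and does not test it. Intervals were not computed.

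The 8 genes, the gene lists and the marker lists were chosen with earlier results of these data known. From each list up to 4 genes with the smallest adjusted p for high against no beads, and up to 4 for the antibody at low or high beads, were considered for naming, beside Il7r and Cd69, and the 3 genes with the nearest profile to each of the 8. Other genes are named where they make up a count, and some genes that the rule names are not reported here. Alternatives were a pseudocount of 0.1, no filter, fits on the compared groups alone, median-ratio scaling, quantile normalization, a nuclear RNA or B cell score as covariate, no trend, leaving out each library, and leaving out the library with the most B cell marker RNA in each group (replicate 3 in all 6). Replicate numbers follow accession order, since the labels give none, and the libraries were not paired by them. Replicate 3 nonetheless held the most B cell marker RNA and replicate 1 the lowest Lef1 value in all 6 groups, and whether libraries of a number share a source was not tested.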

Additional observations from a re-analysis of the deposited data

Results flagged for a closer look

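The antibody effect differed between bead doses for 3 of the 8 genes by an interaction term in limma. Over all tested genes 4.70% were called lower and 6.40% higher for high against no beads, and 1.70% and 1.47% for high against low beads. For Klf2 the effect of anti-Ox40 at high beads was more negative than without beads by -1.05 (limma adjusted p = 0.0045) and more negative than at low beads by -0.93 (limma adjusted p = 0.0177), on the log2(nRPKM + 1) scale. For S1pr1 the difference between high and no beads was -0.84 (limma adjusted p = 0.0138). For Foxp1 it was -0.50 (limma adjusted p = 0.00324). Without the replicate 3 libraries all 3 calls between high and no beads were lost (limma adjusted p = 0.135 for Klf2, 0.207 for S1pr1 and 0.127 for Foxp1). The Klf2 call between high and low beads was lost in 3 of 27 alternatives. At high beads every anti-Ox40 library lay below every control Ig library for each of these 3 genes.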

How the results depend on the processing

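The calls of Klf2, S1pr1 and Foxp1 between the antibodies at high beads, and the calls of Klf2, Klf3, S1pr1, Foxp1 and Tcf7 between bead doses, kept their direction and stayed called in all 27 alternatives. The cause of the changes that follow was not tested, except that leaving libraries out leaves fewer samples. The count of the 8 genes called between the antibodies at low beads was 1, and 0 when only the compared groups were fitted, 2 after quantile normalization, 0 without the replicate 3 libraries and 0 to 2 when single libraries were left out (0 without control Ig, low beads, replicate 3 or anti-Ox40, low beads, replicate 1 or 3, and 2 without control Ig, high beads, replicate 1). The count whose antibody effect differed between high and low beads was 1, and 0 with the compared groups alone, 3 with the nuclear RNA score, 0 without the replicate 3 libraries and 0 to 3 when single libraries were left out (0 without control Ig, high beads, replicate 3, and 3 without control Ig, low beads, replicate 2). For high against no beads that count was 3, and 0 without the replicate 3 libraries. Calls over all tested genes moved as well. Between the antibodies at low beads they were 1254, and 45 with the compared groups alone. They were 1617 after quantile normalization and 24 without the replicate 3 libraries. For the interaction of high and low beads they were 414, and 152 with the compared groups alone. They were 947 with the nuclear RNA score and 3 without the replicate 3 libraries. For high against no beads they went from 1451 to 7.

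Signs that turned belong to differences that were not called in the main fit. The largest of these was Foxo1 from low to high beads under control Ig (0.11, SE 0.05), whose sign depended on scaling. After quantile normalization Ccr7 between the antibodies without beads was 0.003, Foxo1 between the antibodies at high beads -0.004, Foxo1 from low to high beads under control Ig -0.116, and the interaction of low and no beads -0.042 for Ccr7 and -0.079 for Lef1. Median-ratio scaling gave -0.002 for that interaction of Ccr7. With the nuclear RNA score it was -0.095 for Ccr7 and -0.030 for Lef1, and Foxo1 between the antibodies at high beads was -0.009. Without the replicate 3 libraries that difference was -0.035 for Foxo1 and 0.068 for Klf3, and the interaction of high and no beads was 0.135 for Klf3 and 0.057 for Ccr7.

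Leaving out single libraries gave these ranges between the antibodies. Without beads they were -0.113 to 0.002 for Klf2 and -0.107 to 0.037 for Ccr7. At low beads they were -0.124 to 0.104 for Ccr7 and -0.112 to 0.061 for Lef1. At high beads they were -0.167 to 0.005 for Ccr7 and -0.026 to 0.074 for Foxo1. Ccr7 from low to high beads under control Ig ranged from -0.150 to 0.079. The interaction of low and no beads ranged from -0.085 to 0.144 for Ccr7, -0.052 to 0.028 for Tcf7 and -0.059 to 0.114 for Lef1. That of high and low beads was -0.179 to 0.050 for Ccr7. That of high and no beads was -0.144 to 0.050 for Klf3 and -0.128 to 0.044 for Ccr7.

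No paired analysis was possible because the labels give no replicate numbers, and numbers in accession order do not pair libraries. Read depth limits none of the 8 genes, and 3 libraries a group limit all of them.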
